A study of Mus musculus with 2 samples.

Results

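The transcripts described here encode integrins, the receptors with which cells hold the extracellular matrix, and the laminins and nidogens that build the basement membrane. They were chosen by name: a gene entered when its annotated symbol was that of an integrin alpha or beta subunit, a laminin alpha, beta or gamma chain, or Nid1 or Nid2, and when the probe set matched that gene alone. In all 37 of the 18193 named genes on the array qualified, with 80 probe sets between them. There were 16 integrin alpha genes, 9 integrin beta genes, 10 laminin genes and 2 nidogen genes. Itgb2l, an integrin beta 2-like gene, was included, and Itgbl1 was not, because its symbol does not follow the subunit pattern.

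An integrin is a pair of membrane proteins, an alpha and a beta subunit, and the pairing decides which ligand is bound. Some pairs recognise the RGD motif of fibronectin, vitronectin or latent TGF-beta, others bind laminins or collagens, and a further set serves leukocytes. Laminins assemble from an alpha, a beta and a gamma chain into cross-shaped trimers, which polymerise on the cell surface. Nidogens link the laminin network to type IV collagen. In the uterus of early pregnancy these molecules surround epithelium, vessels and muscle, and decidual cells of the rodent stroma lay down their own laminin-rich pericellular matrix.

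Stromal cells were isolated from mouse uteri on day 4 of pregnancy, and RNA pooled over mice of a genotype was hybridized to 1 array, giving 2 arrays in the study. The control mice were Hand2 Floxed and the other mice Hand2-null, obtained by crossing the floxed allele with PRcre, in which the progesterone receptor locus drives Cre recombinase. Both samples list the same Prcre, C57BL/6, SV129 mixed background, so the labels do not settle whether the controls carried Cre. The design text counts 5 mice for each genotype, whereas the protocol for RNA extraction counts 4. The labels state no age of the mice beyond the day of pregnancy. Hand2 is a transcription factor of the uterine stroma, and PRcre acts in every cell that makes the progesterone receptor, not in the stroma alone. With 1 array a genotype there is no replicate error and no test, and each value compares these 2 pools.

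Values are MAS5 signals, a brightness on a linear scale that the authors brought to a common mean in both arrays. A signal counted as measured when it reached the floor, the 60th percentile of the array, which was 64.2 in the control and 67.5 in the Hand2-null array. A log2 ratio is the Hand2-null over the control signal after values under the floor were raised to it. The brightest probe set stood for a gene. Signals of different probe sets are not comparable with each other. A gene is therefore read by the ratio of a probe set between the arrays. For marker lists summed signals are given beside the medians, and the brightest probe sets weigh most in these sums. As a check of the labels, Hand2 itself read 1545 in the control and 38.5 in the Hand2-null array, the latter below the floor. All 15 genes on a list of uterine stroma markers were measured. So were all 20 smooth muscle, all 18 epithelial and all 15 blood endothelial markers. A gene counts as measured when 1 array reaches the floor. Among those not reaching it in both were Oxtr, at 29.6 in the control, and Spink1, at 43.7 in the Hand2-null array. Most of these markers lay above the floor in both arrays, so transcripts of other cell types were present in both isolates. In such bulk RNA a change in the number of cells of a type and a change of RNA per cell cannot be told apart.

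Of the 37 genes, 29 were measured in at least 1 array, or 78.4%, against 57.0% of all named genes. The signal was higher in the Hand2-null array for 21 of the 29 and lower for 8. Across the 10376 measured genes of the array 44.7% were higher and 55.3% lower. The median log2 ratio of the 29 was 0.38, with quartiles of -0.01 and 0.56, beside -0.03 for all measured genes. At least 2-fold higher were 2 of the 29, Itga9 and Itga5, where 1.99% of all measured genes passed, and 1 of the 29, Itgb8, was at least 2-fold lower, where 0.742% passed. At 1.5-fold the counts were 7 higher and 1 lower, against shares of 6.21% and 3.32% over the array. The next 5 genes below the 2-fold line were Lama3, Lama4, Lama5, Itgb7 and Itga1. By family, 11 of 13 measured integrin alpha genes, 3 of 6 integrin beta genes, 6 of 8 laminin genes and 1 of 2 nidogen genes were higher. The members in the dimmest quartile of measured genes were higher in 8 of 10 cases, where 50.3% of all genes of that brightness were. Those in the brightest quartile were higher in 5 of 8, against 42.3%.

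**Figure D1:**
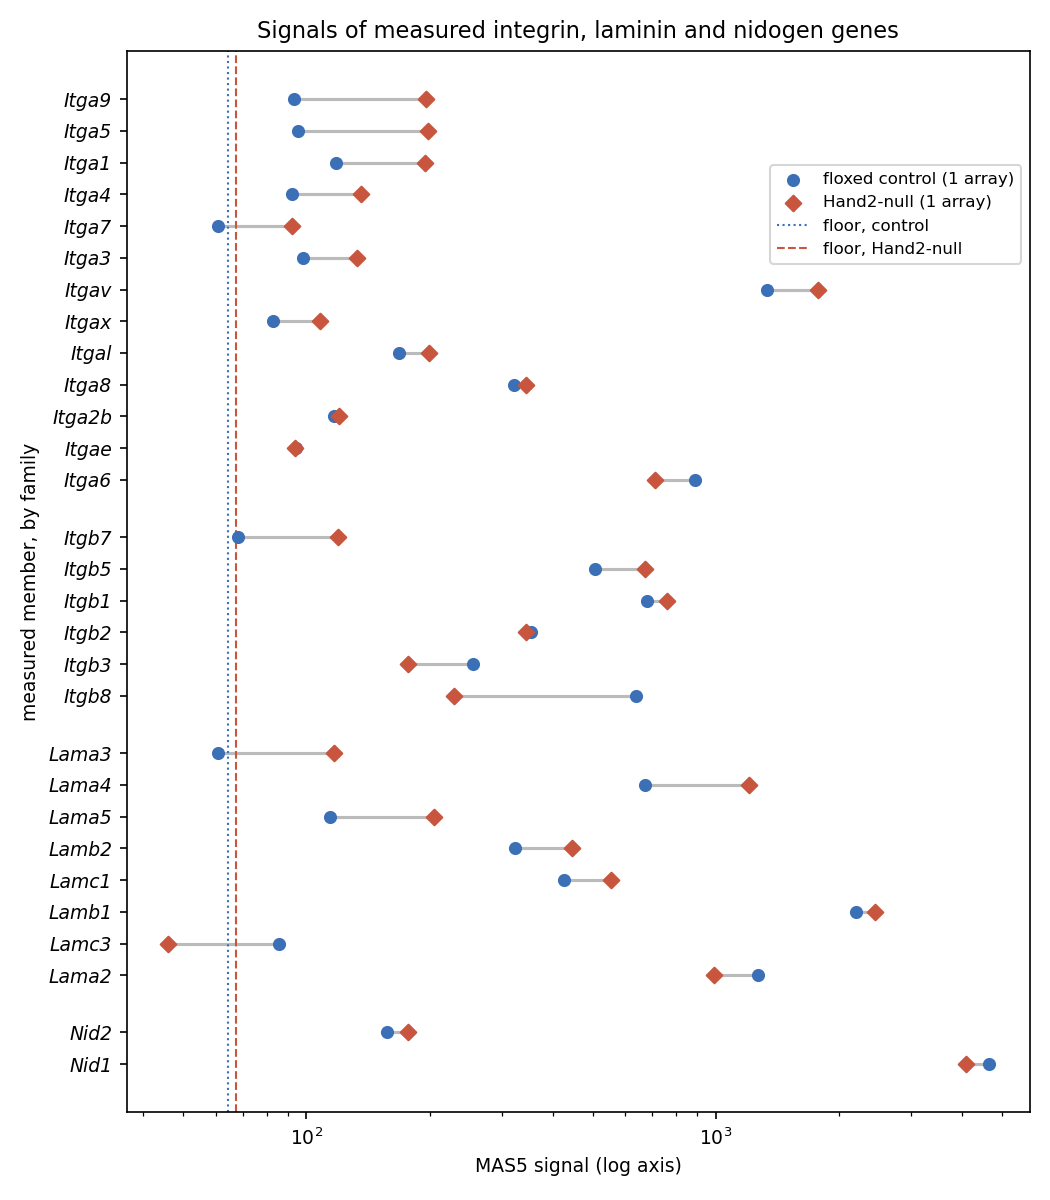
MAS5 signal on a log axis for the 29 measured genes, grouped by family and sorted by ratio, with circles for the floxed control array, diamonds for the Hand2-null array and vertical lines for the 2 floors. Each point is a single array without error, signals are read only along a row, and the widest gap is that of Itgb8, from 639 to 230.

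The largest difference among the 29 belonged to Itgb8, the beta subunit that pairs with alpha v and is known for activating latent TGF-beta. Its only probe set, 1436223_at, read 639 in the control and 230 in the Hand2-null array. Both signals lay well above the floor, and the gene was 2.78-fold lower, with a log2 ratio of -1.47. Counted from the lowest ratio, it ranked 26 of the 10376 measured genes. Under 9 other processing settings its ratio stayed between -1.48 and -1.24. No second probe set was there to compare with it. Beside it, 9 of the 15 stroma markers were lower (median -0.20 on the log2 scale, Hand2 being one of them; summed signals 63267 and 69259), and 12 of the 18 epithelial markers were higher (median 0.18; sums 12651 and 13359). The other 6 epithelial markers were lower, Spink1 by the most, at 1686 and 43.7, the latter under the floor. The part of stromal and epithelial cells in the difference of Itgb8 was not tested.

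Itgav, which encodes the alpha v subunit and so the partner of Itgb8, was not lower. Its measured probe set gave 1330 in the control and 1775 in the Hand2-null array, a 1.33-fold higher signal, and its other 4 probe sets were under the floor. Among other beta subunits that can pair with alpha v, the directions divided. Itgb3, the beta subunit shared by the vitronectin receptor and the platelet fibrinogen receptor, read 255 and 177, or 1.44-fold lower. Itgb5, another vitronectin receptor subunit, read 508 and 672, or 1.32-fold higher. The 4 measured probe sets of Itgb5 lay close together, with log2 ratios from 0.40 to 0.50. Itgb6, an epithelial subunit that also activates latent TGF-beta, was under the floor in both arrays by both of its probe sets. The measured beta subunits named in this paragraph thus spanned log2 ratios from -1.47 to 0.40. Tgfb1, the ligand whose latent form these receptors bind, was under the floor in both arrays.

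The 2 genes past 2-fold on the other side were alpha subunits. Itga9, whose product binds tenascin C and VCAM1 and is needed for the valves of lymphatic vessels, read 93.0 in the control and 196 in the Hand2-null array. That is 2.11-fold higher, a log2 ratio of 1.08, by 1 of its 3 probe sets, while the other two were under the floor. Lymphatic endothelial markers went the same way: all 6 on the array were higher (median log2 ratio 1.19), with a summed signal of 1905 in the control and 4683 in the Hand2-null array. Among them Lyve1, a hyaluronan receptor, read 502 and 1460, and Reln 389 and 1101. All 20 smooth muscle markers were higher too (median 1.39), with sums of 27680 and 62558. The part of either cell type in the value of Itga9 was not tested.

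Itga5, the alpha chain of the classical fibronectin receptor, read 95.3 and 198 by probe set 1458996_at, or 2.08-fold higher. A pair of dimmer probe sets pointed the same way with smaller bounds: 1423267_s_at read 44.4 and 77.1, at least 0.26 on the log2 scale, and 1457561_at read 43.1 and 75.5, at least 0.23. Their control signals were under the floor, so those ratios can only be bounds. Itgb1, which encodes its beta chain, was 1.12-fold higher. The control signals of both Itga5 and Itga9 stood within 1.5-fold of the floor. With the floor raised to the 75th percentile both control signals were under it, and the log2 ratios became lower bounds of 0.28 and 0.27, which could not reach 2-fold.

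**Figure D2:**
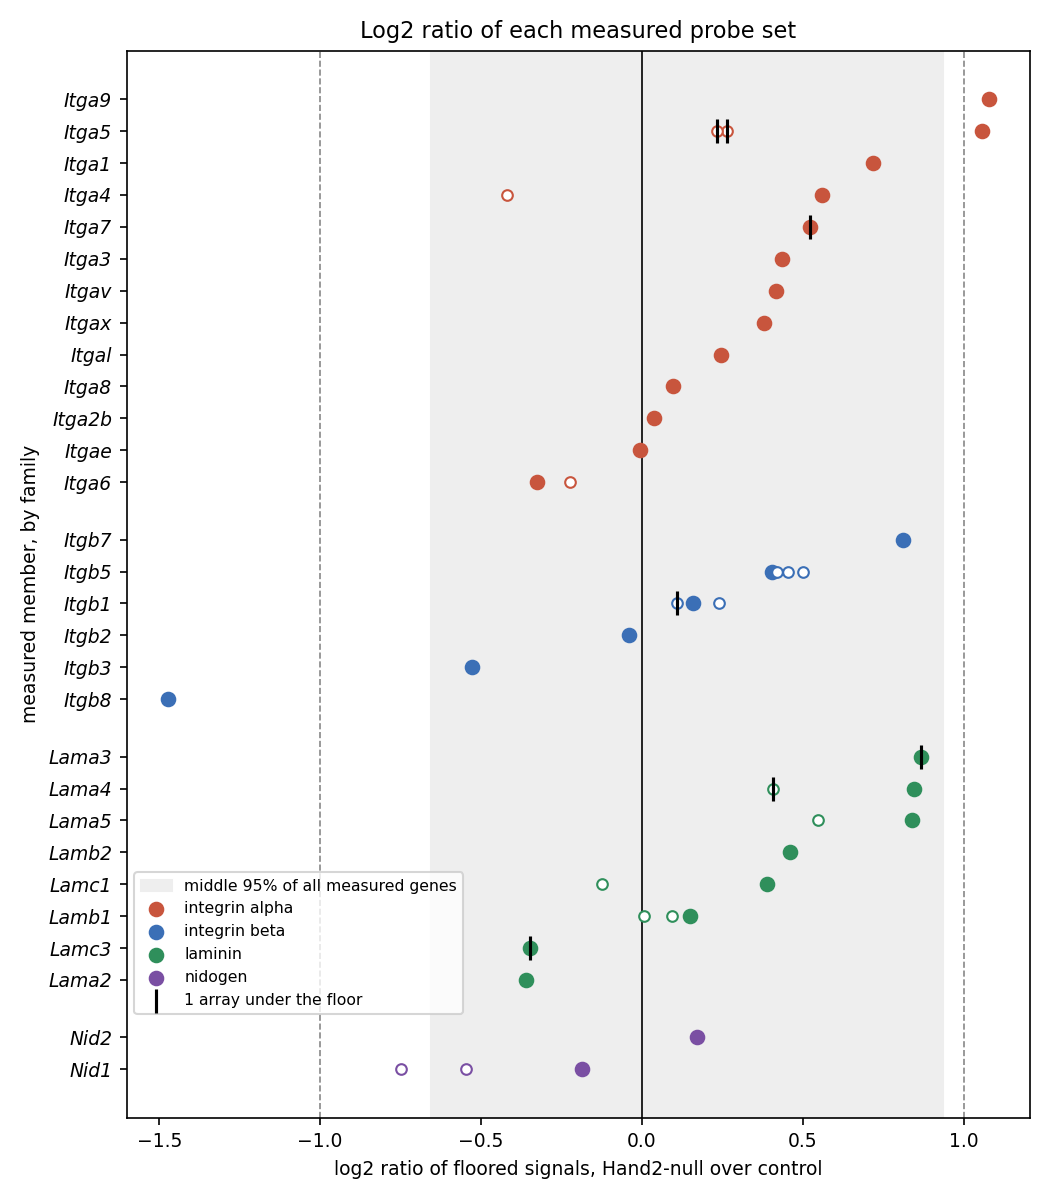
Log2 ratio of floored signals for every measured probe set of the 29 genes, filled for the probe set that stands for the gene and open for the others, with a black tick where 1 array was under the floor. The grey band holds the middle 95% of all measured genes, from -0.66 to 0.93, and only Itga9, Itga5, Itgb8 and a second probe set of Nid1 lie outside it.

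The promoters of these 3 genes are shown because they carry the differences past 2-fold, and HAND2, like other basic helix-loop-helix factors, binds E-boxes. Each runs from 250 bases before to 50 bases after the transcription start, 5′ to 3′ on the strand of the gene, from RefSeq on GRCm38.p6. Capitals mark each E-box, CANNTG, which reads the same on both strands. Itgb8 lies on the minus strand at chr12:119238227-119238526, Itga9 on the plus strand at chr9:118711442-118711741, and Itga5 on the minus strand at chr15:103366742-103367041.
Itgb8: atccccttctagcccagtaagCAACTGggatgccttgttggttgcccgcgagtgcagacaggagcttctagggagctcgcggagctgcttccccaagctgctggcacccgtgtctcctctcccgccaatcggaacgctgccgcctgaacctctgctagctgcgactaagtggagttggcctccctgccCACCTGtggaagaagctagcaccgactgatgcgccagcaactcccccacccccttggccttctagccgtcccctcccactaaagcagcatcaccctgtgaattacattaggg
Itga9: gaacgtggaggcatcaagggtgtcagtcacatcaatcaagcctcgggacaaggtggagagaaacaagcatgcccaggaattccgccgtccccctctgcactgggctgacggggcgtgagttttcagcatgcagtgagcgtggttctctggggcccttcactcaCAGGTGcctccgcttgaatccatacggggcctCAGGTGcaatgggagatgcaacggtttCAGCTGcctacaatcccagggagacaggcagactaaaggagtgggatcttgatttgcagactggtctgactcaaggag
Itga5: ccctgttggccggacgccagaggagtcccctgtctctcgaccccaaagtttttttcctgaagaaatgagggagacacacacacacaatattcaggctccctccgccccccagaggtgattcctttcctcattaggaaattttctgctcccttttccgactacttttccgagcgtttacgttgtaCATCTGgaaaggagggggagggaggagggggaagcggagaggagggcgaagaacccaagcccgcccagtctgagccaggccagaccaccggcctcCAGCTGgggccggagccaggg
The window of Itgb8 held 2 E-boxes, that of Itga9 held 3 and that of Itga5 held 2, where the median over 32851 promoters of this length was 1 and 72.3% held at least 1. Among the E-boxes, the form CATCTG or its reverse complement CAGATG was found in Itga5 and in neither of the others, and 17.2% of all promoters held it. The CArG box, the motif of serum response factor in muscle genes, was in none of the 3, and 1.63% of all promoters held it. Of the 37 genes, 24 had a promoter in the table, 27 in all, and 22 of those 27 held an E-box. A motif match is a description of these letters and no evidence of binding.

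Among the other RGD-binding alpha subunits the signals were nearly level. Itga8, the receptor of nephronectin in smooth muscle and mesenchyme, read 321 and 343, or 1.07-fold higher. Its ligand Npnt, in contrast, read 167 and 422, or 2.53-fold higher. Itga2b, the platelet fibrinogen receptor subunit, read 117 and 120. Of 6 platelet and megakaryocyte markers, 5 were under the floor in both arrays, Gp9, Gp5 and Ppbp among them, and the sixth, Pf4, read 275 and 336.

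Laminin-binding alpha subunits did not move together. Itga6, a receptor of epithelial and endothelial basement membranes, read 891 and 711, or 1.25-fold lower, and its second probe set was lower as well, at -0.22 on the log2 scale. Itga3, another epithelial laminin receptor, read 98.4 and 133, or 1.35-fold higher, on 1 of 3 probe sets. Itga7, the laminin receptor of muscle, read 60.8, under the floor, and 92.2, so it was at least 1.44-fold higher. Its difference went the same way as the smooth muscle markers, whose part was not tested. Itgb4, which joins alpha6 in hemidesmosomes, read 47.3 and 63.5, both below the floor.

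Of the collagen receptors, Itga1 was measured, and Itga2 and Itga10 were under the floor in both arrays. Itga1, common in smooth muscle and fibroblasts, read 118 and 194, or 1.65-fold higher, with a lower bound of 0.25 on the log2 scale at the floor of the 75th percentile. Itga4, a receptor of VCAM1 and fibronectin, gave contradictory readings. Its probe set 1436037_at read 92.2 and 136, a log2 ratio of 0.56, whereas 1456498_at read 127 and 95.1, a ratio of -0.42. The direction of Itga4 is therefore unsettled here. Itgb1, which can pair with each of these subunits, read 679 and 758, a log2 ratio of 0.16. Its probe set 1452545_a_at gave 0.24, and 1427771_x_at, with a control signal under the floor, at least 0.11.

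Most leukocyte integrins had small ratios, Itgb7 being the exception. Itgb2, the beta chain that leukocyte adhesion receptors share, read 354 and 344, or 1.03-fold lower. Its partner Itgal, of lymphocytes, read 168 and 199, Itgax, of dendritic cells and macrophages, 83.0 and 108, and Itgam, of myeloid cells, was under the floor in both arrays. Itgae, of intraepithelial lymphocytes, read 94.1 and 93.8. Its sign, at a log2 ratio of -0.01, turned with median centring and with a pseudo-signal. Itgb7, which pairs with alpha4 or alpha E on lymphocytes homing to the gut, read 68.3 and 120, or 1.75-fold higher, with a control signal just above the floor. Itgb2l was under the floor by all 3 of its probe sets. Of the 13 measured leukocyte markers 5 were higher (median log2 ratio -0.06), and their summed signals were 8955 in the control and 8982 in the Hand2-null array. Single markers differed. Cd3g, a T cell receptor component, read 91.0 and 169, and Cpa3, a mast cell protease, 121 and 381. S100a9, of neutrophils, read 138 and 70.0. Gzma, at 139 and 100, and Nkg7, at 135 and 107, were lower. Cd3e, Cd79a and Ncr1 were under the floor in both arrays. The part of leukocytes in the value of Itgb7 was not tested.

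Of the 4 measured laminin alpha chains 3 were higher and 1 was lower. Lama4, the chain of vascular and muscle basement membranes, read 670 and 1204, or 1.80-fold higher, with a second probe set at no less than 0.41. Lama5, widespread in adult basement membranes, read 114 and 205, or 1.79-fold higher, and its second probe set read 91.8 and 134, a log2 ratio of 0.55. Lama3, a chain of epithelial laminins, read 60.8, under the floor, and 117, which is at least 1.82-fold higher. The ratios of Lama4 and Lama5, 0.85 and 0.84, were short of 2-fold, and that of Lama3 is a lower bound. With the floor at the 75th percentile the control signal of Lama5 was under it, and its ratio was bounded at no less than 0.33. Lama2, the chain of muscle and nerve basement membranes, went the other way at 1267 and 987, or 1.28-fold lower by its only probe set. Of 5 Schwann cell and nerve markers on the array 4 were under the floor in both arrays, Sox10 and S100b among them, and L1cam read 43.5 and 71.2. Lama1, a chain of early embryonic basement membranes, read 5.42 and 6.06, below the floor. Beside the higher chains stood the smooth muscle median of 1.39, the lymphatic median of 1.19 and the mesothelial median of 0.93, with 10 of 11 mesothelial markers higher and summed signals of 2072 and 4040. Blood endothelial markers were lower in 11 of 15 (median -0.15), with sums of 7025 and 6060, and pericyte markers were higher in 4 of 7 (median 0.07), with sums of 7496 and 6474. The part of these cell types in the laminin values was not tested.

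Of the 4 measured beta and gamma chains 3 were higher and 1 was lower. Lamb1, the most widely used beta chain, read 2202 and 2442, and its 3 measured probe sets lay between 0.01 and 0.15 on the log2 scale. Lamb2, the beta chain of muscle, kidney and synaptic basement membranes, read 323 and 445, or 1.38-fold higher. Lamc1, the gamma chain of most laminins, read 425 and 556 by one probe set, a log2 ratio of 0.39, and 186 and 171 by the other, a ratio of -0.12. Both probe sets of Lamc1, like those of Lamb1 and Lamb2, gave ratios below those of Lama4 and Lama5 by the probe sets that stand for these genes. Lamc3 read 85.8 and 45.8, the second under the floor, so it was at least 1.27-fold lower, and with no floor its log2 ratio was -0.90. Lamb3, an epithelial chain, read 21.9 and 47.8, both below the floor.

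The nidogens differed in direction. Nid1, the nidogen of most basement membranes, read 4638 and 4072 by its brightest probe set, a log2 ratio of -0.19. The other probe sets of Nid1 showed larger differences in the same direction, 815 and 485 for 1448469_at, a ratio of -0.75, and 132 and 90.0 for 1441519_at, a ratio of -0.55. The size of the Nid1 difference thus depends on the probe set, from 1.14-fold to 1.68-fold lower, while its direction does not. Nid2 read 157 and 177, or 1.13-fold higher.

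**Figure D3:**
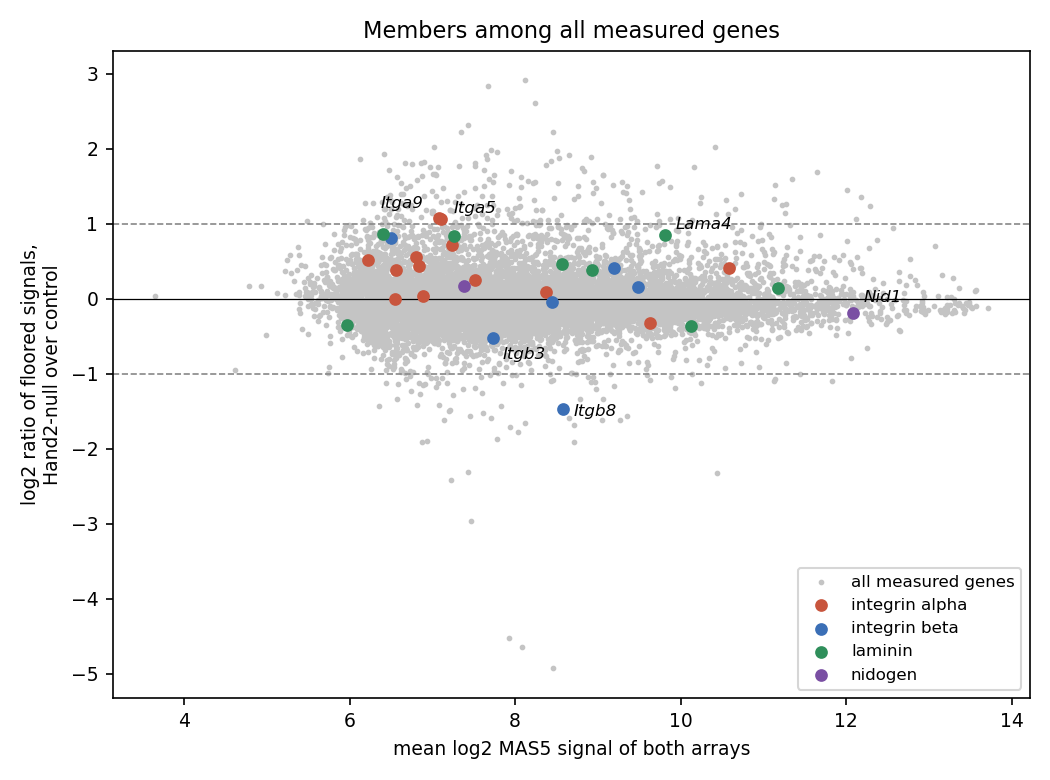
Log2 ratio against mean log2 signal, 1 point per measured gene, with the 29 members coloured by family over all 10376 genes in grey and dashed lines at 2-fold. Itgb8 lies below the lower line at -1.47, Itga9 and Itga5 lie just above the upper line in the dim range, and Lama4 lies at 0.85 among bright genes.

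In all 8 genes, with 11 probe sets, were under the floor in both arrays, with signals from 1.14 to 63.5. They were Itga2, Itga10, Itgam, Itgb2l, Itgb4, Itgb6, Lama1 and Lamb3. No fold is given for them.

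Different probe sets of one gene give the only view of measurement error here. Of the 29 measured genes, 19 rested on a single measured probe set. The 10 with several had a pooled standard deviation of 0.29 between the log2 ratios of their probe sets, beside 0.21 over 4065 such genes of the array. These are floored ratios, so bounds enter as if they were values. Itga5 entered with 1.06, 0.26 and 0.23, where its ratios without a floor were 1.06, 0.80 and 0.81. Part of the 0.29 therefore comes from the floor. In 2 of the 10, Itga4 and Lamc1, the probe sets differed in sign, as they did in 1488 of the 4065 genes. This spread leaves out variation between mice.

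Genes that work with integrins were read from lists of adaptors, ligands and other basement membrane components. Of 45 measured adaptors and signalling genes 39 were higher (median log2 ratio 0.28) and 6 lower. Past 2-fold were 2 on the higher side and 0 on the lower, where 1.99% and 0.742% of all measured genes passed. The 2 adaptors were Flnc, a muscle filamin that crosslinks actin, at 167 and 389 or 2.32-fold higher, and Tgfb1i1, the paxillin relative Hic-5, at 351 and 733 or 2.09-fold higher. Tns1, a tensin that ties integrin tails to actin, read 403 and 793, and Lims2, a partner of the integrin-linked kinase, 135 and 264. Flnc and Tgfb1i1 are also active in muscle, whose markers had the median of 1.39 given above, and its part was not tested.

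Of 22 measured integrin ligands 17 were higher (median 0.26), and past 2-fold were 2 higher and 0 lower. Over all measured genes the shares past 2-fold were 1.99% higher and 0.742% lower. Besides Npnt, Thbs2, a matricellular thrombospondin, read 57.2, under the floor, and 169, at least 2.63-fold higher. Col1a1 read 1828 and 3617, and Postn, a matricellular ligand of alpha v integrins, 2090 and 3714. Of 31 other basement membrane genes 20 were higher (median 0.23) and 11 lower. Beside the same shares over all measured genes, 3 were higher past 2-fold and 0 lower. These 3 were Npnt, Fbln1, a fibulin, at 467 and 986, and Dst, a linker of hemidesmosomes to the cytoskeleton, at 689 and 1448. Smoc1, a calcium-binding protein of basement membranes, read 1059 and 552, or 1.92-fold lower. Immediate-early and handling genes, which answer to cell isolation, were higher in 16 of 17 (median 0.43), with sums of 39822 and 50810. Their part in these lists and in the members was not tested.

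**Figure D4:**
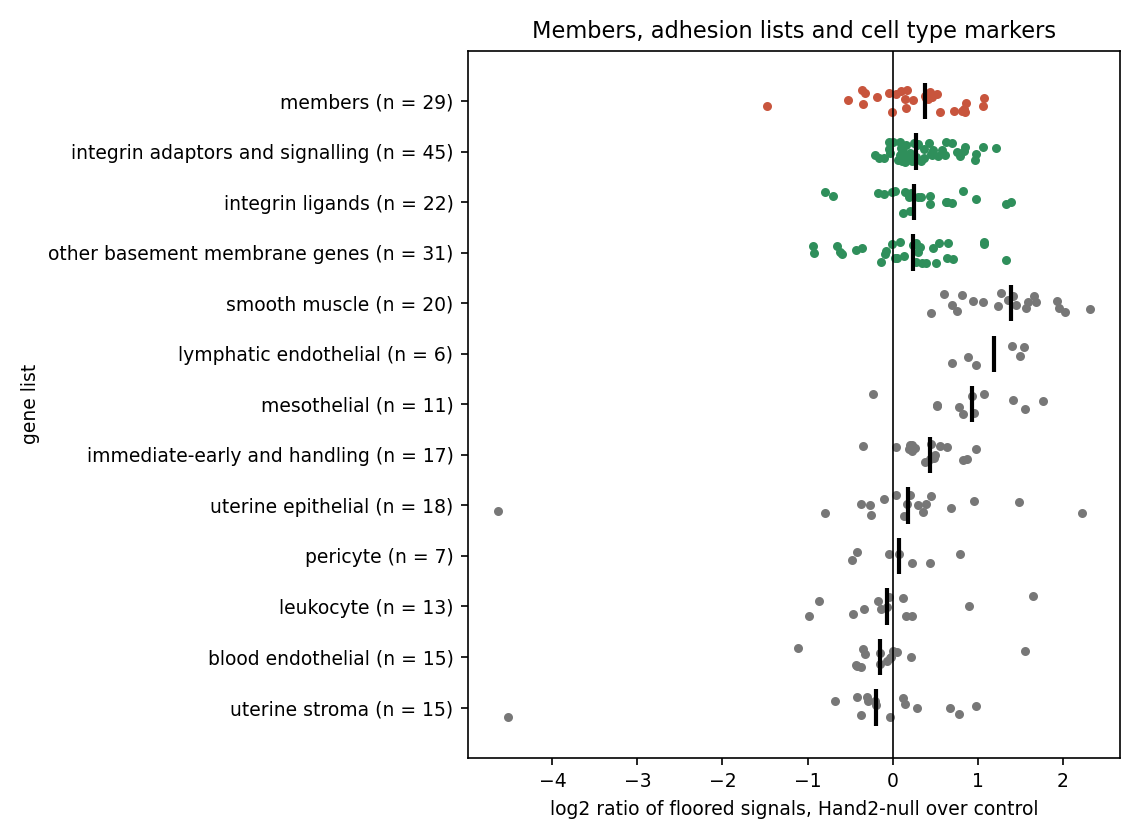
Log2 ratio of each measured gene in the 29 members, in 3 lists of adhesion genes and in 9 lists of cell type and handling markers, with a black bar at each median and random vertical scatter. The members centre on 0.38, the adhesion lists on 0.28, 0.26 and 0.23, and the smooth muscle markers on 1.39.

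**Figure D5:**
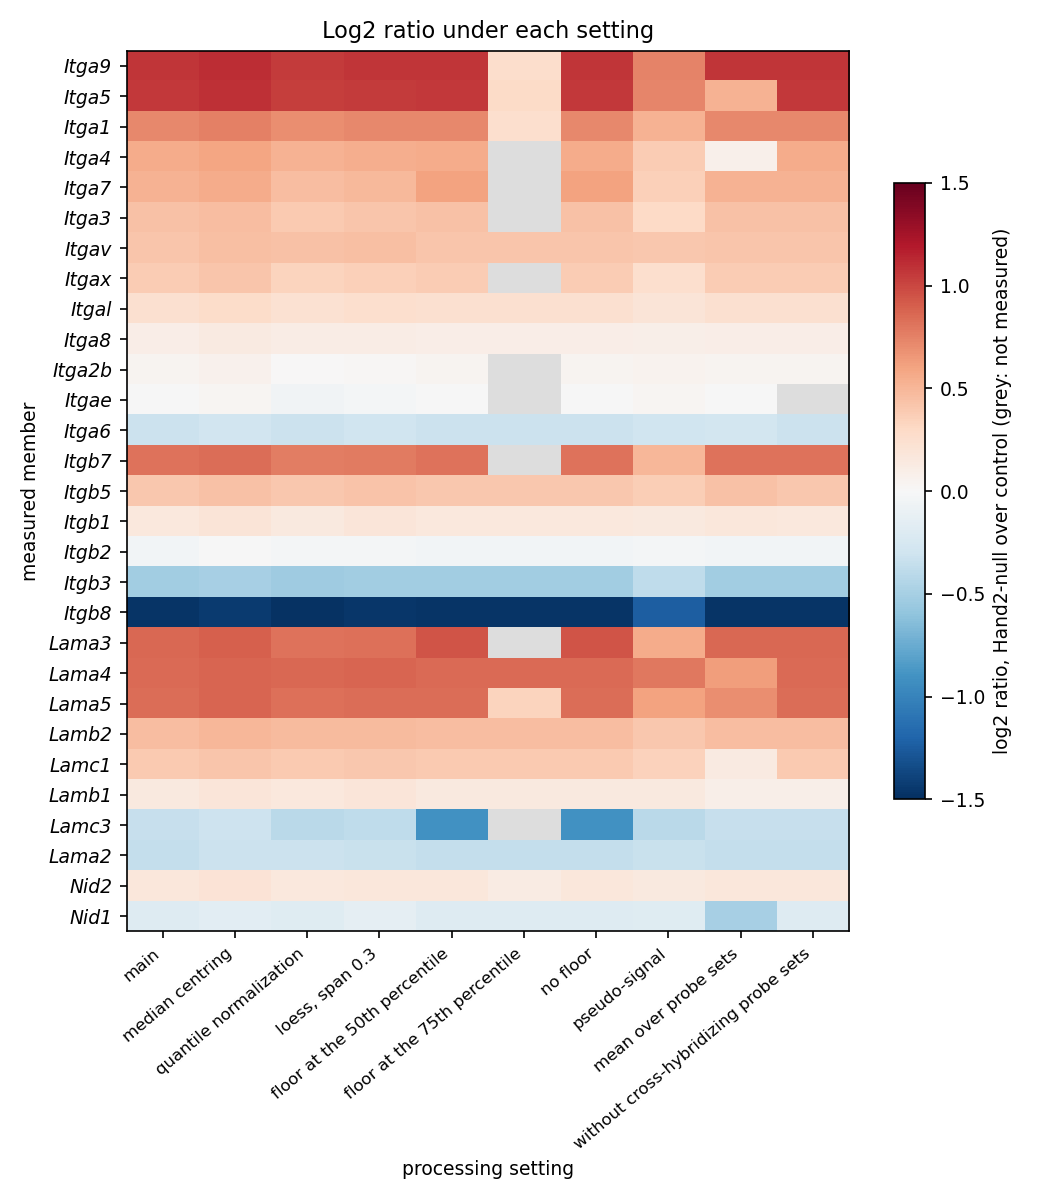
Log2 ratio of each of the 29 genes under the setting used in the text, named main, and under 9 alternatives, with red for higher and blue for lower in the Hand2-null array and grey where the gene was not measured. Itgb8 stays at or below -1.24 throughout, whereas Itga5 and Itga9 have only lower bounds of 0.28 and 0.27 with the floor at the 75th percentile.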

How the data were processed

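The deposited values were intensities on a linear scale, MAS5 signals. Per the submitters' processing notes they came from version 1 of the Affymetrix Expression Console. After trimming 2% at each end the mean was 150.001 in both arrays. Any further normalization and the genome build of the annotation are not given in the sources. MAS5 subtracts mismatch signal, so ratios between dim values are unsteady.

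Among 45101 probe sets 64 controls were set aside, and 34945 of the rest had 1 gene, 932 several and 9160 none listed. Of the 34945, 34741 matched a RefSeq gene (GRCm38.p6) by Entrez ID, and 0 symbols changed. The members, the lists and the rules were chosen with earlier results of these data known. All measured members are named. From each other list the genes named are among the 4 with the largest ratio in size. Excepted are genes named as under the floor, and Gzma and Nkg7. Calls needed a log2 ratio of at least 1 in size. The procedure was checked on simulated arrays with the same relative noise at every brightness. That check does not cover the unsteadiness of dim signals. The number of arrays limits every value. Python 3.11.15, numpy 2.4.6, pandas 2.3.3 and statsmodels 0.14.6 were used.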

Additional observations from a re-analysis of the deposited data

How the results depend on the processing

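No paired analysis was possible because each genotype has 1 array. The scaling was varied by median centring, quantiles or loess (span 0.3). The floor was moved to the 50th or 75th percentile, removed, or added to each signal as a pseudo-signal. Probe sets were averaged per gene, or those that may match further transcripts were dropped, and the fold threshold was changed. The members at least 2-fold higher numbered 2, where 1.99% of all measured genes passed. They numbered 0 with the floor at the 75th percentile (1.56% of all genes), 0 with the pseudo-signal (1.13%) and 1 with the mean over probe sets (1.88%). At 1.5-fold 7 members passed (6.21%), and at 3-fold 0 (0.472%). With no floor the members at least 2-fold higher numbered 3, Lamb3 being added, where 9.05% of all genes passed. Itgb8 was the 1 gene at least 2-fold lower under each alternative except the threshold of 3-fold, at which 0 passed. The share of all genes passing on that side ran from 0.386% with the pseudo-signal to 8.94% with no floor. It was 0.193% at 3-fold. The median of the members lay between 0.17 and 0.41, the lowest with the mean over probe sets, while that of all measured genes lay between -0.04 and 0. From 70.0% to 78.4% of the members were higher, beside 43.4% to 50% of all genes. With the floor at the 75th percentile only 20 members were measured. Itga2b, Itga3, Itga4, Itga7, Itgae, Itgax, Itgb7, Lama3 and Lamc3 had no value there. Of the 29 members 28 kept their sign under every alternative in which they were measured, and 1, Itgae, did not. Of 251 single values under the alternatives, 17 moved by more than 0.21, the spread between probe sets of a gene. Averaging cannot alter the 19 members with a single measured probe set. A moved floor leaves a value unchanged where both signals stay above it. These tallies are therefore no measure of error. Itga4 is among the 28, although its measured probe sets differ in sign. The floor at the 75th percentile left bounds of 0.28 for Itga5, 0.27 for Itga9, 0.33 for Lama5 and 0.25 for Itga1. The pseudo-signal moved Itga5, Itga9, Lama5, Lama3, Itgb7 and Itgb8, the mean over probe sets moved Itga5, Itga4, Lama4, Lamc1 and Nid1, and Lamc3 moved to -0.90 with a lower floor or none. Dim control signals limit Itga5, Itga9, Lama5 and Itga1. Dim signals also limit the members without a value at the floor of the 75th percentile, and 19 members rest on a single measured probe set.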
